A study of Mus musculus with 12 samples.

Results

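The genes described here encode the fibrotic and interstitial matrix: fibronectin and matricellular proteins, lysyl oxidases, elastic fibre and microfibril proteins, small proteoglycans, collagens that form no banded fibril, and a pair of other matrix proteins. They were chosen by name as a list of 41 genes that leaves out the fibrillar collagens and the basement membrane. All 41 were found among the 25749 genes of each expression table, and 40 passed the count filter. Loxl4, a lysyl oxidase relative with at most 0.356 CPM in any library, did not pass and is not tested. RNA was measured in the brains of 12 B6 males, all 13 weeks old, with 4 in each of 3 groups. The groups were uninjured mice, injured mice, whose injury the series title calls cerebrovascular, and injured mice that received αLFA1/VLA4 continuously, called treated here. αLFA1/VLA4 stands for antibodies against LFA1 and VLA4, integrins by which leukocytes cross vessel walls. All mice were perfused with saline, and a cube of tissue with an edge of 3 mm was taken on day 20. The labels describe the mice as different animals, name no control antibody for the injured group, and do not say where the cube lay in uninjured mice.

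Total exon reads ranged from 13330379 to 16121577 per library and were lowest in the treated group (13330379 to 13917157). Markers of brain cells were abundant in every library, with a summed level of 5678 to 7855 CPM for 7 neuron genes, 6391 to 7388 CPM for 6 oligodendrocyte genes and 3410 to 4459 CPM for 6 astrocyte genes. CPM are exon reads scaled to the effective library size. Mitochondrial transcripts took 10.3% to 12.01% of exon reads in uninjured, 4.75% to 7.99% in injured and 8.83% to 11.01% in treated libraries. Uninjured library 1 and treated library 4 were the extremes of the leading principal component (38.3% of the variance).

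Interstitial matrix is the scaffold that fibroblasts lay down between cells. Healthy brain holds little of it outside the meninges and the walls of larger vessels, and after injury fibroblast-like cells of these borders can build a scar of collagen and fibronectin. Matricellular proteins tune how cells grip this scaffold, lysyl oxidases link its fibres covalently, and small leucine-rich proteoglycans coat collagen fibrils and bind growth factors. In bulk tissue, more cells of a type and more RNA per cell cannot be told apart.

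Matrix transcripts were higher after injury and higher again in treated mice, but individual genes followed different courses. In injured against uninjured mice 15 of the 40 tested members rose and 3 fell, where 11.9% of all 14771 genes tested rose and 11% fell (edgeR, Benjamini-Hochberg adjusted p below 0.05). In treated against uninjured mice 30 members rose and 0 fell, against 6.3% and 3.22% of all genes. In treated against injured mice 22 rose and 2 fell, against 10.9% and 10.7% of all genes. The median log2 fold change of the members was 0.30, 0.74 and 0.40 in these comparisons, beside 0.03, 0.01 and 0.01 over all genes tested. No member rose at least 2-fold in injured against uninjured mice, while 16 did in treated against uninjured and 9 in treated against injured mice. The comparisons share groups and are not independent of each other.

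Libraries rather than means show the same courses. In 18 members all 4 treated libraries lay above all 8 others, a pattern held by 4.02% of all genes tested. In 15 members every injured and treated library lay above every uninjured one (3.76% of all genes), and in 5 of them, Sparc, Pcolce, Bgn, Dcn and Col6a3, the groups ran from uninjured through injured to treated without overlap (0.677% of all genes). Col6a1 and Col16a1 were the members in which the 4 injured libraries lay above all others (6.29% of all genes), and Aspn and Col8a1 those in which they lay below all others (4.8% of all genes). Each of these patterns was thus held by 2 of 40 members, a share close to that of all genes.

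**Figure D1:**
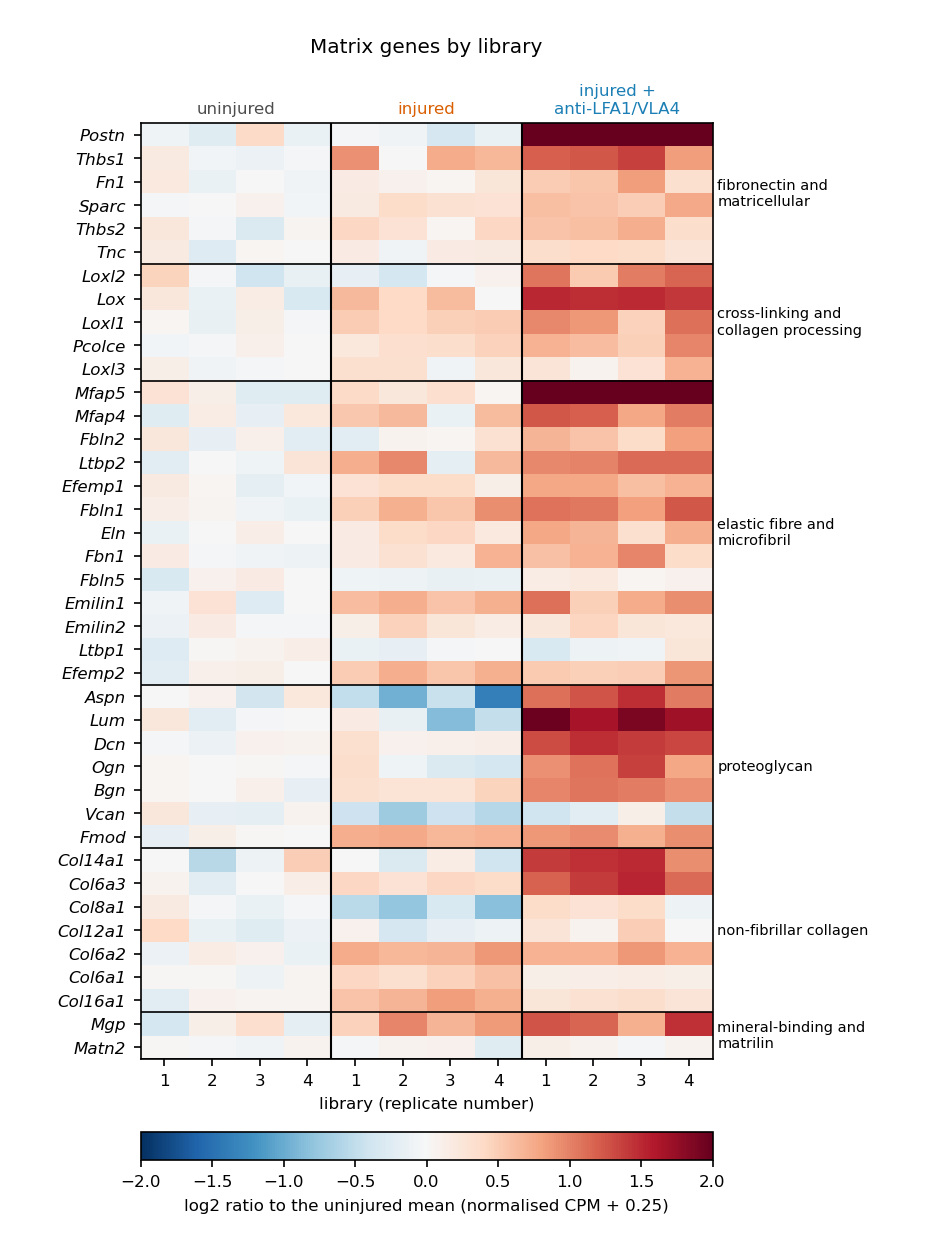
Each column is a library and each line a matrix gene, grouped by role. The colour gives the log2 ratio of its normalised CPM (with 0.25 added) to the uninjured mean, capped at -2 and 2; the treated libraries are the darkest red for Postn, Mfap5 and Lum, the injured libraries are blue for Aspn, Col8a1 and Vcan, and Col6a1 and Col16a1 are reddest in the injured libraries.

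In intron reads, which come mostly from unspliced RNA, only 17 members could be tested and none rose or fell in injured or treated against uninjured mice (edgeR; 3 and 2 had an unadjusted p below 0.05, and over all genes 0.488% and 0.674% were called). In treated against injured mice 1 member passed in intron reads, Col12a1, which rose by 0.87 on the log2 scale (edgeR adjusted p = 0.0425), while 9.50% of all genes were called. When the test asked for a change beyond 1.2-fold, 5 members were higher and 0 lower in injured against uninjured mice, 26 and 0 in treated against uninjured mice, and 12 and 0 in treated against injured mice. With the compared groups alone in the model, 16 members rose in treated against injured mice; the calls of Thbs1, Loxl1, Pcolce, Eln, Fbln1 and Mfap4 ended (adjusted p 0.0519 to 0.0893).

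Of the 6 fibronectin and matricellular genes, 2 rose with injury, 5 were higher in treated than in uninjured mice, and 4 were higher in treated than in injured mice. Over all genes tested 11.9% rose and 11% fell with injury. The shares were 6.3% and 3.22% in treated against uninjured and 10.9% and 10.7% in treated against injured mice. Counts in this and the following role groups are to be read against these shares. Postn encodes periostin, which fibroblasts secrete in healing wounds and which helps to organise collagen. Its level was 2.69, 2.41, 3.83 and 2.62 CPM in the uninjured libraries and 2.80, 2.74, 2.23 and 2.60 CPM in the injured ones. In the treated libraries it was 18.9, 16.9, 17.8 and 15.6 CPM. Uninjured and injured libraries overlapped (log2 fold change -0.15, SE 0.15, edgeR adjusted p = 0.478), and every treated library lay far above both. Postn rose by 2.74 on the log2 scale against injured (SE 0.13, edgeR adjusted p = 2.70e-08) and by 2.58 against uninjured mice (SE 0.13, adjusted p = 2.92e-08).

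Sparc, a collagen-binding glycoprotein, was the most abundant member. It stood at 231, 241, 253 and 228 CPM in uninjured, 271, 308, 293 and 290.0 CPM in injured and 362, 354, 336 and 404 CPM in treated libraries. The groups did not overlap, and the level went up in small steps. Sparc rose by 0.29 on the log2 scale with injury (SE 0.07, edgeR adjusted p = 0.0128) and by a further 0.33 in treated against injured mice (SE 0.07, adjusted p = 0.00491). In intron reads the latter was -0.10 (SE 0.27), and the change with injury was 0.82 (SE 0.29, edgeR adjusted p = 0.172).

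Thbs1, thrombospondin 1, can release TGF-beta from its latent form. Its libraries held 3.29, 2.74, 2.62 and 2.82 CPM in uninjured, 5.60, 2.86, 4.94 and 4.67 CPM in injured and 6.85, 7.11, 7.77 and 5.33 CPM in treated mice. Injured library 2 lay within the uninjured range, and treated library 4 lay below injured library 1. Thbs1 rose by 0.66 on the log2 scale with injury (SE 0.19, edgeR adjusted p = 0.0302), by 1.24 in treated against uninjured (adjusted p = 9.26e-04) and by 0.58 in treated against injured mice (adjusted p = 0.0327). The call with injury ended without any 1 uninjured library and without injured library 1, 3 or 4 (adjusted p 0.0515 to 0.0888). The call of treated against injured ended without injured library 2 or 4 or treated library 1, 2 or 3 (adjusted p 0.0588 to 0.0787).

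Fn1, fibronectin, which cells grip through integrins, ranged over 40.1 to 50.6 CPM in uninjured, 45.3 to 52.4 CPM in injured and 55.2 to 78.8 CPM in treated libraries. It rose by 0.57 on the log2 scale in treated against uninjured (edgeR adjusted p = 0.00382) and by 0.43 in treated against injured mice (adjusted p = 0.0119). With injury alone its log2 fold change was 0.14 (adjusted p = 0.339). In intron reads treated against uninjured gave -0.01 (SE 0.22). Thbs2, the thrombospondin most like Thbs1, rose by 0.59 in treated against uninjured mice (adjusted p = 0.0108), and its other log2 fold changes were 0.30 with injury and 0.29 in treated against injured mice. Both passed once the GC and length trend was taken out (0.38, adjusted p = 0.0150, and 0.28, adjusted p = 0.0424), the first also with library size alone as the scale (adjusted p = 0.0404). Tnc, tenascin C, a glycoprotein of developing and wounded tissue, did not pass in any comparison. Its treated libraries held 5.85 to 6.47 CPM and the 8 others 4.04 to 5.51 CPM, with log2 fold changes of 0.36 against uninjured (adjusted p = 0.0570) and 0.24 against injured mice (adjusted p = 0.125). Both passed once the GC and length trend was taken out (0.46, adjusted p = 0.00539, and 0.35, adjusted p = 0.0259), and the first also with library size alone (0.42, adjusted p = 0.0332) and without uninjured library 1 (0.43, adjusted p = 0.04996).

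**Figure D2:**
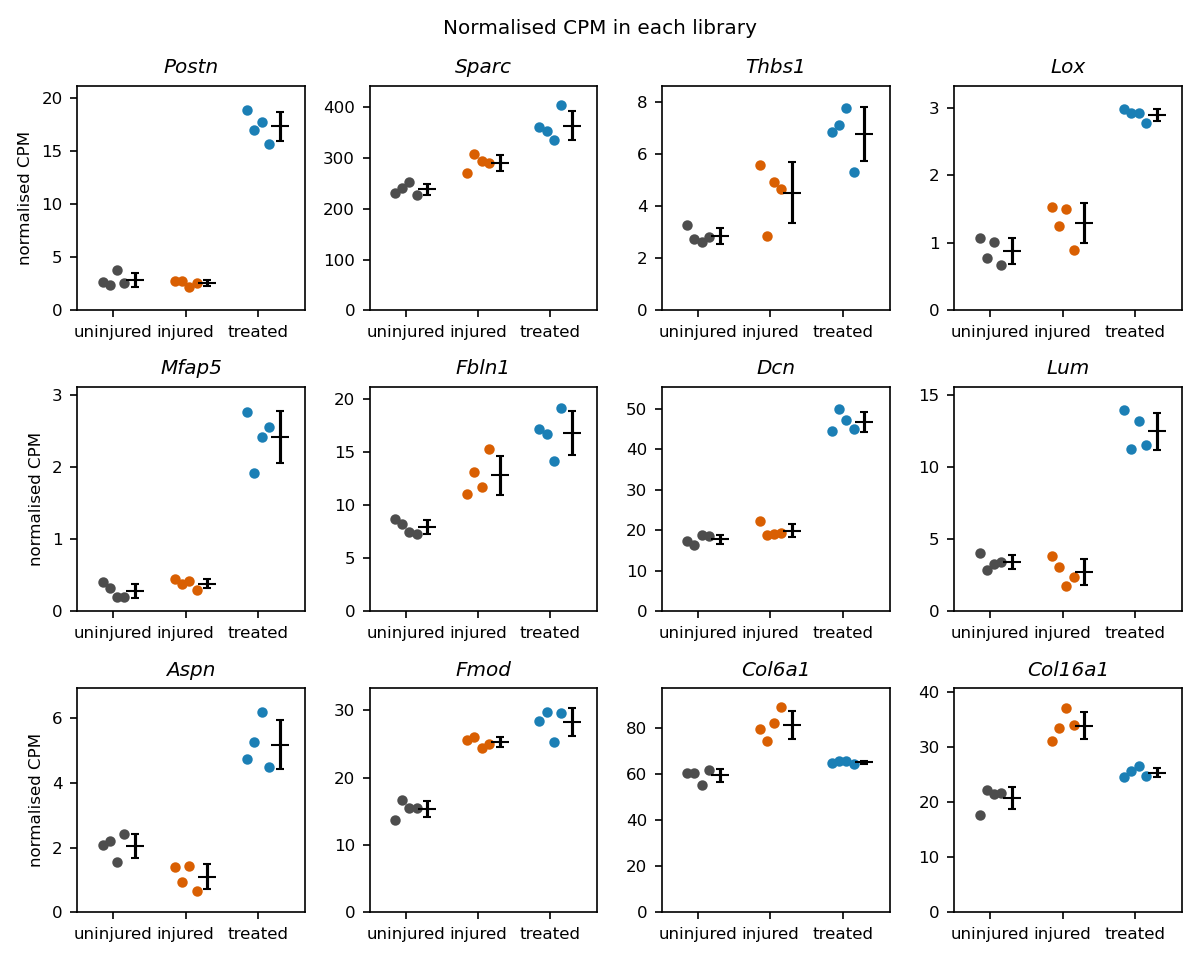
Normalised CPM of 12 matrix genes in every library by group (4 points a group), with the mean and SD as a black bar beside the points; every axis starts at 0. Postn, Mfap5, Dcn, Lum and Lox stand apart in the treated group, Fmod stands above the uninjured libraries in both injured and treated mice, Aspn is lowest in injured mice, and Col6a1 and Col16a1 are highest there.

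Among the lysyl oxidases and the collagen processing gene, 2 of 5 tested members rose with injury, 4 were higher in treated than in uninjured and 4 in treated than in injured mice. Lox encodes the lysyl oxidase that links collagen and elastin chains. It was scarce, with 1.08, 0.782, 1.01 and 0.671 CPM in uninjured, 1.53, 1.24, 1.51 and 0.888 CPM in injured and 2.99, 2.92, 2.92 and 2.78 CPM in treated libraries. The lowest treated library held more than the highest injured one, while the uninjured and injured ranges overlapped (log2 fold change 0.54, edgeR adjusted p = 0.0907). The latter difference passed once the GC and length trend was taken out (0.73, adjusted p = 0.0284) and with library size alone (0.62, adjusted p = 0.0464). Lox rose by 1.71 on the log2 scale in treated against uninjured (SE 0.20, edgeR adjusted p = 9.57e-05) and by 1.17 in treated against injured mice (SE 0.18, adjusted p = 0.00103). Over the 4 libraries of a group these levels rest on 53 reads in uninjured, 84 in injured and 160 in treated mice.

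Loxl1, the family member tied to elastic fibre upkeep in mice, held 3.09, 2.67, 3.29 and 2.95 CPM in uninjured, 4.39, 4.05, 4.28 and 4.38 CPM in injured and 6.05, 5.69, 4.21 and 6.76 CPM in treated libraries. All injured and treated libraries were above all uninjured ones, but treated library 3 lay within the injured range. The log2 fold change was 0.51 with injury (edgeR adjusted p = 0.0252), 0.92 in treated against uninjured (adjusted p = 0.00101) and 0.41 in treated against injured mice (adjusted p = 0.0459). Its call with injury ended without uninjured library 1, 2 or 4 or injured library 3 or 4 (adjusted p 0.0583 to 0.0719), and when each library's trend over GC content and length was taken out (adjusted p = 0.358). Its call of treated against injured ended without any 1 library other than treated library 3 (adjusted p 0.0520 to 0.108).

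Pcolce enhances the protease that trims procollagen. Its libraries held 8.54, 8.73, 9.53 and 8.86 CPM in uninjured, 10.3, 11.3, 11.5 and 12.4 CPM in injured and 14.5, 13.9, 12.5 and 17.9 CPM in treated mice, with no overlap between groups. Pcolce rose by 0.35 on the log2 scale with injury (edgeR adjusted p = 0.0352) and by 0.37 in treated against injured mice (adjusted p = 0.0245). The first call ended without uninjured library 1, 2 or 4, injured library 2, 3 or 4 or treated library 2 (adjusted p 0.0533 to 0.114) and once the GC and length trend was taken out (adjusted p = 0.385), and the second without injured library 2 or treated library 1 (adjusted p 0.0501 to 0.0534). Loxl2, another lysyl oxidase, held 1.21 to 2.35 CPM in uninjured and 1.24 to 1.78 CPM in injured libraries, and 2.49 to 4.05 CPM in treated ones. It rose by 1.18 in treated against injured (adjusted p = 0.00237) and by 1.06 in treated against uninjured mice (adjusted p = 0.00666), with -0.12 for injury alone. Loxl3 passed no test (log2 fold changes 0.22, 0.36 and 0.14).

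The elastic fibre and microfibril group had 13 tested members, of which 4 rose with injury, 10 were higher in treated than in uninjured mice and 6 in treated than in injured mice. No member of the group fell in any comparison, where 11%, 3.22% and 10.7% of all genes tested did. Mfap5, a small glycoprotein of microfibrils, had the highest log2 fold change of all members in treated against uninjured mice. It held 0.403, 0.326, 0.201 and 0.201 CPM in uninjured, 0.446, 0.373, 0.422 and 0.296 CPM in injured and 2.77, 1.92, 2.42 and 2.55 CPM in treated libraries. The first 2 groups overlapped near the floor of detection, with 17 and 25 reads over 4 libraries, and treated libraries held 133 reads. Mfap5 rose by 3.06 on the log2 scale against uninjured (SE 0.24, edgeR adjusted p = 3.25e-06) and by 2.63 against injured mice (SE 0.22, adjusted p = 1.10e-05). Injured against uninjured gave 0.43 (SE 0.33, adjusted p = 0.474).

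Fbln1, fibulin 1, a protein of elastic fibres and basement membranes, changed in steps. Its libraries held 8.74, 8.21, 7.52 and 7.25 CPM in uninjured, 11.1, 13.1, 11.7 and 15.3 CPM in injured and 17.1, 16.6, 14.2 and 19.1 CPM in treated mice. Every injured and treated library was above every uninjured one, while treated library 3 lay below injured library 4. Fbln1 rose by 0.69 on the log2 scale with injury (SE 0.12, edgeR adjusted p = 0.00382) and by 0.39 in treated against injured mice (SE 0.12, adjusted p = 0.0304). The second call ended without injured library 1, 2 or 3 or treated library 1, 2 or 4 (adjusted p 0.0511 to 0.0697). In intron reads treated mice were at -0.12 against uninjured (SE 0.38) and -0.36 against injured mice (SE 0.36), and neither passed.

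Efemp1, fibulin 3, held 12.7, 11.4, 9.80 and 10.7 CPM in uninjured, 13.7, 14.5, 14.4 and 12.1 CPM in injured and 19.2, 19.2, 16.97 and 18.2 CPM in treated libraries. All treated libraries were above all others, and injured library 4 lay within the uninjured range. Efemp1 rose by 0.30 on the log2 scale with injury (edgeR adjusted p = 0.0398), by 0.72 in treated against uninjured (adjusted p = 2.42e-04) and by 0.43 in treated against injured mice (adjusted p = 0.00614). The call with injury ended without uninjured library 2, 3 or 4, injured library 1, 2 or 3 or treated library 1 or 2 (adjusted p 0.0528 to 0.120). The call of treated against injured ended once the GC and length trend was taken out (adjusted p = 0.0728).

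The related Efemp2, fibulin 4, which brings lysyl oxidase to elastic fibres, showed another course. It rose by 0.64 on the log2 scale with injury (edgeR adjusted p = 0.00380) and by 0.61 in treated against uninjured mice (adjusted p = 0.00407), while treated against injured gave -0.03 (SE 0.11, adjusted p = 0.873). Emilin1, a glycoprotein at the surface of elastic fibres, rose by 0.70 with injury (adjusted p = 0.0109) and by 0.88 in treated against uninjured mice (adjusted p = 0.00308), with 0.18 between treated and injured (adjusted p = 0.406). Once the GC and length trend was taken out, the injury call of Emilin1 ended (0.41, adjusted p = 0.0766) and treated against injured passed (0.49, adjusted p = 0.0202). Mfap4, another microfibril protein, Eln, elastin itself, and Fbln2, fibulin 2, rose in treated against both other groups but did not pass the test with injury alone (Eln passed without treated library 3, adjusted p = 0.0469, and with library size alone, adjusted p = 0.0295, and Mfap4 without injured library 3, adjusted p = 0.0331). Their log2 fold changes in treated against uninjured mice were 1.15, 0.65 and 0.64, and in treated against injured mice 0.65, 0.35 and 0.57. In intron reads Fbln2 was at -0.16 (SE 0.26) and -0.30 (SE 0.26) in these comparisons, and neither passed. Against injured mice the call of Mfap4 ended without treated library 1 or 2 (adjusted p 0.0688 to 0.0745), and that of Eln without uninjured library 2 or 4, injured library 1, 2 or 4 or treated library 1, 2 or 4 (adjusted p 0.0551 to 0.108) and with library size alone (adjusted p = 0.0530).

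Fbn1, fibrillin 1, the backbone of microfibrils, and Ltbp2, a latent TGF-beta binding protein family member, passed the test in treated against uninjured mice and, in the model used throughout, in no other comparison. Fbn1 rose by 0.69 on the log2 scale (edgeR adjusted p = 0.0107) and Ltbp2 by 1.36 (adjusted p = 0.0103). Ltbp2 rests on 31 to 74 reads a group. Its call ended when uninjured library 1 and treated library 4 were left out together (edgeR adjusted p = 0.0701). The call of Fbn1 ended in the test against a fold of 1.2 (adjusted p = 0.0599). Without injured library 3 Ltbp2 also passed with injury (adjusted p = 0.0260), and Fbn1 passed in treated against injured mice without injured library 4 (adjusted p = 0.0403) or treated library 4 (adjusted p = 0.0481). Once the GC and length trend was taken out, Fbn1 passed with injury (0.41, adjusted p = 0.0243) and in treated against injured mice (0.44, adjusted p = 0.0101), and Ltbp2 in treated against injured mice (0.83, adjusted p = 0.040). With library size alone both passed with injury (adjusted p = 0.0433 and 0.0468). In intron reads Fbn1 was at -0.01 in treated against uninjured mice (SE 0.32). Fbln5, Emilin2 and Ltbp1 did not pass, with log2 fold changes between -0.12 and 0.29 over the 3 comparisons, although Emilin2 passed with injury with library size alone (0.34, adjusted p = 0.0405).

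The 7 proteoglycan genes had the highest median log2 fold changes of the larger role groups in treated mice, 1.08 against uninjured and 1.15 against injured mice. With injury alone 2 rose and 2 fell, in treated against uninjured mice 6 rose, and in treated against injured mice 5 rose. Dcn encodes decorin, which coats collagen fibrils and binds TGF-beta. It held 17.3, 16.4, 18.8 and 18.6 CPM in uninjured, 22.2, 18.8, 19.03 and 19.5 CPM in injured and 44.5, 50.1, 47.3 and 45.04 CPM in treated libraries. The 3 groups did not overlap, though the gap between uninjured and injured libraries was narrow. Dcn rose by 1.39 on the log2 scale in treated against uninjured (SE 0.08, edgeR adjusted p = 6.02e-08) and by 1.23 in treated against injured mice (SE 0.08, adjusted p = 3.39e-07). Injury alone gave 0.16 (SE 0.08, adjusted p = 0.140), which passed once the GC and length trend was taken out (log2 fold change 0.52, adjusted p = 0.00396) and with library size alone as the scale (0.24, adjusted p = 0.0398).

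Bgn, biglycan, the closest relative of decorin, held 18.1, 17.8, 18.9 and 15.8 CPM in uninjured, 22.2, 21.4, 21.3 and 24.1 CPM in injured and 34.9, 37.3, 36.1 and 33.6 CPM in treated libraries. The groups did not overlap. Bgn rose by 0.34 on the log2 scale with injury (SE 0.07, edgeR adjusted p = 0.0105) and by 0.67 in treated against injured mice (SE 0.07, adjusted p = 6.77e-05). The first call ended once the GC and length trend was taken out (log2 fold change 0.20, adjusted p = 0.102).

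Lum, lumican, which regulates the width of collagen fibrils, held 4.03, 2.87, 3.29 and 3.42 CPM in uninjured, 3.82, 3.05, 1.75 and 2.37 CPM in injured and 13.9, 11.2, 13.2 and 11.6 CPM in treated libraries. The lowest treated library lay far above all others, and uninjured and injured libraries overlapped. Lum rose by 1.87 on the log2 scale in treated against uninjured (SE 0.18, edgeR adjusted p = 1.58e-05) and by 2.19 in treated against injured mice (SE 0.18, adjusted p = 8.49e-06). With injury its log2 fold change was -0.31 (adjusted p = 0.263). Dcn and Lum are neighbours on chromosome 10 (chr10:97479609-97518143 and chr10:97565128-97572703, both on the plus strand, GRCm38).

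Aspn, asporin, and Ogn, osteoglycin, are collagen-binding proteoglycans that lie near each other on chromosome 13 (chr13:49544443-49567565 and chr13:49608046-49624501, plus strand, GRCm38). Aspn fell with injury, against the direction of most matrix genes. Its libraries held 2.08, 2.22, 1.54 and 2.42 CPM in uninjured, 1.40, 0.934, 1.45 and 0.651 CPM in injured and 4.74, 5.26, 6.20 and 4.50 CPM in treated mice. All injured libraries were below all uninjured ones, and all treated libraries were above both. The log2 fold change was -0.90 with injury (SE 0.24, edgeR adjusted p = 0.0212), 1.32 in treated against uninjured (adjusted p = 8.75e-04) and 2.22 in treated against injured mice (SE 0.22, adjusted p = 3.32e-05). The fall with injury was not called without uninjured library 1 or 4 or injured library 2 or 4 (adjusted p 0.0547 to 0.0622), nor once the GC and length trend was taken out (log2 fold change -0.42, adjusted p = 0.156). Ogn held 7.25 to 7.66 CPM in uninjured, 5.80 to 9.62 CPM in injured and 12.99 to 19.7 CPM in treated libraries, and rose by 1.08 in treated against uninjured (adjusted p = 6.57e-04) and by 1.15 in treated against injured mice (adjusted p = 4.25e-04).

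Fmod, fibromodulin, took the other course within this family. It held 13.7, 16.7, 15.6 and 15.5 CPM in uninjured, 25.7, 26.1, 24.5 and 25.03 CPM in injured and 28.4, 29.7, 25.3 and 29.6 CPM in treated libraries. Injured and treated ranges overlapped, and both lay above all uninjured libraries. Fmod rose by 0.72 on the log2 scale with injury (SE 0.08, edgeR adjusted p = 1.80e-04), with 0.16 for treated against injured mice (SE 0.08, adjusted p = 0.149). Once the GC and length trend was taken out, the latter passed at 0.25 (adjusted p = 0.0127), as it did without treated library 3 (0.22, adjusted p = 0.0462). Vcan encodes versican, a large proteoglycan of loose matrix and of nets around nerve cells rather than a small leucine-rich one. It held 16.1 to 21.6 CPM in uninjured, 11.1 to 13.7 CPM in injured and 13.1 to 19.8 CPM in treated libraries, and fell with injury by a log2 fold change of -0.53 (edgeR adjusted p = 0.0181). The fall was not called without uninjured library 1 or 4 or injured library 2 or 4 (adjusted p 0.0517 to 0.0616). In treated against uninjured mice Vcan was at -0.23 (adjusted p = 0.291), and at -0.37 without treated library 3 (adjusted p = 0.0413).

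Non-fibrillar collagens divided by course. With injury 4 of 7 rose and 1 fell, in treated against uninjured mice 4 rose, and in treated against injured mice 3 rose and 2 fell. Over all genes tested 11% fell with injury and 10.7% in treated against injured mice. The chains of type VI collagen, which forms beaded filaments around cells, did not move as 1 unit. Col6a1 held 60.3, 60.2, 55.2 and 61.5 CPM in uninjured, 79.2, 74.3, 82.03 and 89.1 CPM in injured and 64.5, 65.4, 65.7 and 64.1 CPM in treated libraries. Every injured library was above all others, and treated libraries lay just above the uninjured ones. Col6a1 rose by 0.45 on the log2 scale with injury (SE 0.06, edgeR adjusted p = 0.00128) and was lower in treated than in injured mice by a log2 fold change of -0.32 (SE 0.06, adjusted p = 0.00394). Once the GC and length trend was taken out, the latter was -0.13 (adjusted p = 0.0752).

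Col6a2, whose gene lies next to Col6a1 on chromosome 10 (chr10:76595762-76623630 and chr10:76708792-76726168, minus strand, GRCm38), held 14.1, 16.9, 16.3 and 14.02 CPM in uninjured, 25.9, 24.4, 24.8 and 28.3 CPM in injured and 24.9, 24.9, 28.2 and 25.1 CPM in treated libraries. Injured and treated libraries overlapped and all lay above the uninjured ones. It rose by 0.75 on the log2 scale with injury (SE 0.09, edgeR adjusted p = 2.86e-04), and treated against injured gave -0.00 (SE 0.08, adjusted p = 0.978).

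Col6a3, the remaining chain measured, held 3.03, 2.41, 2.89 and 3.15 CPM in uninjured, 3.88, 3.55, 3.91 and 3.79 CPM in injured and 6.78, 7.97, 8.70 and 6.61 CPM in treated libraries, with no overlap between groups. Col6a3 rose by 0.99 on the log2 scale in treated against injured mice (SE 0.12, edgeR adjusted p = 1.62e-04) and by 0.40 with injury (adjusted p = 0.0430). The call with injury ended without any 1 library other than treated library 3 or 4 (adjusted p 0.0506 to 0.1104) and once the GC and length trend was taken out (adjusted p = 0.0535). Whether the chains differ from each other in their fold changes was not tested.

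Col16a1, a collagen attached to other fibrils, followed the course of Col6a1. It held 17.7, 22.1, 21.5 and 21.7 CPM in uninjured, 31.01, 33.4, 37.04 and 33.97 CPM in injured and 24.6, 25.6, 26.4 and 24.8 CPM in treated libraries, and the 3 groups did not overlap. The log2 fold change was 0.71 with injury (SE 0.08, edgeR adjusted p = 3.37e-04), 0.29 in treated against uninjured (adjusted p = 0.0447) and -0.42 in treated against injured mice (SE 0.08, adjusted p = 0.00371). The call of treated against uninjured ended without any 1 of the 12 libraries (adjusted p 0.0511 to 0.125). The lower level in treated than in injured mice was -0.08 once the GC and length trend was taken out (adjusted p = 0.535).

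Col14a1, which sits on the surface of collagen fibrils, held 1.30 to 2.95 CPM in uninjured, 1.48 to 2.29 CPM in injured and 4.13 to 6.20 CPM in treated libraries. It rose by 1.57 on the log2 scale in treated against injured (edgeR adjusted p = 4.82e-04) and by 1.44 in treated against uninjured mice (adjusted p = 8.94e-04). Col8a1, a network-forming collagen of vessel walls, fell with injury by a log2 fold change of -0.62 (adjusted p = 0.0116), with 7.38 to 9.21 CPM in uninjured and 4.44 to 6.50 CPM in injured libraries. It was higher by 0.87 in treated than in injured mice (adjusted p = 0.00125), with 7.58 to 10.6 CPM in treated libraries. Col12a1, a relative of Col14a1, did not pass in exon reads (log2 fold changes -0.12, 0.22 and 0.35). Once the GC and length trend was taken out it was higher in treated than in uninjured (0.42, adjusted p = 0.00278) and than in injured mice (0.38, adjusted p = 0.00616).

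Mgp, matrix Gla protein, an inhibitor of calcification in vessel walls and cartilage, held 12.8, 17.9, 20.9 and 14.4 CPM in uninjured, 22.9, 32.6, 26.6 and 29.9 CPM in injured and 39.7, 37.4, 27.2 and 45.8 CPM in treated libraries. All injured and treated libraries were above all uninjured ones, and treated library 3 lay within the injured range. Mgp rose by 0.76 on the log2 scale with injury (SE 0.18, edgeR adjusted p = 0.0120) and by 1.18 in treated against uninjured mice (adjusted p = 7.70e-04), with 0.42 for treated against injured (adjusted p = 0.0925), which passed without treated library 3 (0.56, adjusted p = 0.0152). Matn2, matrilin 2, an adaptor protein of matrix networks, held 30.4, 29.3, 28.6 and 31.5 CPM in uninjured, 29.6, 31.6, 31.8 and 25.2 CPM in injured and 32.5, 31.3, 29.5 and 31.4 CPM in treated libraries. These ranges overlapped throughout, and the log2 fold changes were -0.02, 0.06 and 0.08, none past the test.

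**Figure D3:**
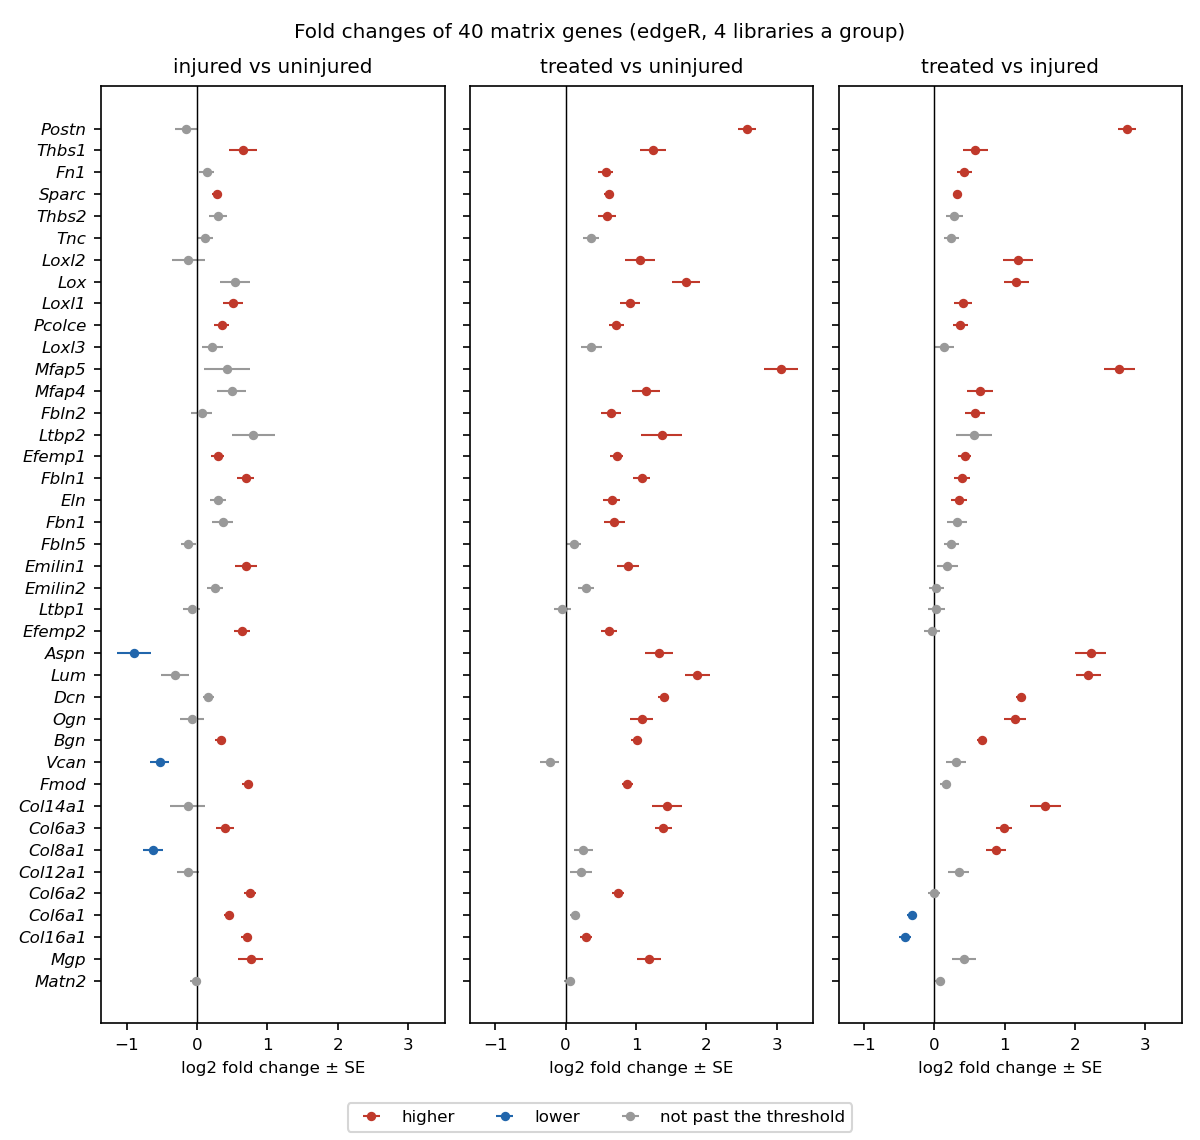
Log2 fold change and its SE for the 40 tested matrix genes in the 3 comparisons (edgeR, 4 libraries a group), in red where higher, blue where lower and grey where the adjusted p was not below 0.05. With injury the calls stay below a log2 fold change of 1, treated against uninjured mice has 30 higher and 0 lower, and in treated against injured mice Col6a1 and Col16a1 are lower while Postn and Mfap5 lie beyond 2.5.

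Promoter sequence is shown for genes that differ in course: Postn, Aspn and Ogn, whose treated libraries lay above all others, and Col6a1 and Col16a1, whose injured libraries did. They were picked after their values were seen. Each is a window of 300 bases across the RefSeq start site (GRCm38.p6), written 5′ to 3′ on the gene's strand, and capitals mark matches on either strand to TATAAA (the TATA box), TGANTCA (AP-1), CAGACA (SMAD) or CATTCC (TEAD). TGANTCA reads the same on both strands.
Postn, chr3:54360857-54361156, plus strand: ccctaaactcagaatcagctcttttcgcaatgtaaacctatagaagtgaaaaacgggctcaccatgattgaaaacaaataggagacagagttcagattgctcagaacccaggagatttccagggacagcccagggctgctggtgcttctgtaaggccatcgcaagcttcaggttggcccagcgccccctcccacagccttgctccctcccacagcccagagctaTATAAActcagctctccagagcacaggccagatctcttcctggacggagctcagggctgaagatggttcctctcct
Aspn, chr13:49544193-49544492, plus strand: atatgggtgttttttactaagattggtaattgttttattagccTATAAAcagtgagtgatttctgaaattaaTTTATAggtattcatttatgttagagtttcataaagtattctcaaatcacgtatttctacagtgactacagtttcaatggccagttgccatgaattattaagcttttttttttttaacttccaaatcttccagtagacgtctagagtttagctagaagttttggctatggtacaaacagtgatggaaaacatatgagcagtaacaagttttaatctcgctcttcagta
Ogn, chr13:49607765-49608064, plus strand: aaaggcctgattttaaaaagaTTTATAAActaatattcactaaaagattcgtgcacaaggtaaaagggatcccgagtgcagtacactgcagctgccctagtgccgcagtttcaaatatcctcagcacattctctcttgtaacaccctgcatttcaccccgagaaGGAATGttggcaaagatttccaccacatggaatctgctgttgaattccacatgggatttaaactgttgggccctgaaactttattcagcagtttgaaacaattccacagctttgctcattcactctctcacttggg
Col6a1, chr10:76725995-76726294, minus strand: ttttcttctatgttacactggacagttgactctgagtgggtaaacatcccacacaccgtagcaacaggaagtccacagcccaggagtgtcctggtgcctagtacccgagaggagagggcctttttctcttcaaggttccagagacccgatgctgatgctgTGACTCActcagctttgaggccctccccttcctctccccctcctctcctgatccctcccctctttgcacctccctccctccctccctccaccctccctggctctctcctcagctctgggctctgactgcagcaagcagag
Col16a1, chr4:130047590-130047889, plus strand: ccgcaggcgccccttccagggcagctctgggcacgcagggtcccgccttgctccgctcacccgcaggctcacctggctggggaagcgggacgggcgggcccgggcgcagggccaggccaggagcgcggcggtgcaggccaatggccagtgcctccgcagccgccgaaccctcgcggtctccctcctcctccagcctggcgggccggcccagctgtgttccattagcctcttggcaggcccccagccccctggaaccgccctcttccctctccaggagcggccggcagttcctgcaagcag

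Postn carries TATAAA at position -26 relative to the start site, in the run agctaTATAAActcagc. Aspn has it at -207 and, on the other strand, at -178. Ogn has overlapping matches at -229 and -227 on opposite strands, and CATTCC on the other strand at -86. Col6a1 has TGANTCA at -90, and the Col16a1 window holds none of the 4 motifs. RefSeq promoters were matched for 26 of the 41 members, of which 5 hold TATAAA (Aspn, Ogn, Postn, Thbs2 and Tnc), beside 13.6% of all 32851 promoters of this length. TGANTCA was in 2 of the 26 (7.81% of all promoters), CAGACA in 6 (21.04%) and CATTCC in 1 (14.7%). These are letter matches and no evidence of binding.

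Per length, the members together made up 488 ± 9.23 TPM in uninjured (SD, n = 4), 707 ± 46.5 TPM in injured and 839 ± 14.1 TPM in treated libraries. TPM, unlike CPM, are corrected for exon length. The library ranges were 475 to 497, 664 to 772 and 820.2 to 854 TPM, and did not overlap. Sparc alone made up 209 ± 3.75, 286 ± 16.9 and 321 ± 12.1 TPM, and without it the sums were 279, 422 and 518 TPM. Mgp came next, with means of 63.7, 121 and 145 TPM. Next in order was Col6a1 in uninjured and injured mice and Dcn in treated mice, with 53.6 ± 5.28 TPM against 38.1 ± 2.63 TPM for Col6a1.

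By role, the proteoglycan sum was 64.3 ± 1.83 TPM in uninjured, 84.6 ± 6.83 TPM in injured and 145 ± 14.5 TPM in treated libraries, and the sum of non-fibrillar collagens was 57.1 ± 3.44, 87.8 ± 10.04 and 70.4 ± 6.73 TPM (SD, n = 4). Elastic fibre genes summed to 45.4 ± 2.02, 65.98 ± 4.31 and 76.7 ± 1.10 TPM. The proteoglycan sum thus moved mainly in treated mice and the collagen sum mainly in injured mice. Most of the collagen sum was Col6a1 (34.7, 53.2 and 38.1 TPM) and Col16a1 (8.93, 16.3 and 10.99 TPM). Col6a2 had close means in injured and treated mice, 11.5 ± 1.40 and 10.3 ± 1.23 TPM, or 25.8 and 25.7 CPM. By contrast, Col6a3, Col8a1, Col12a1 and Col14a1 had their highest mean TPM in treated mice, so the sum does not describe every collagen. Over all genes TPM shifted as well: on the log2(TPM + 1) scale the median of all genes was 0.16 in injured against uninjured and -0.13 in treated against injured mice, and changes in TPM are to be read against these shifts. On this scale (limma) Eln, Dcn, Mfap4, Thbs2, Emilin2 and Lox also passed with injury, and Col6a3 and Vcan did not. Fbn1 and Col16a1 did not pass in treated against uninjured mice, nor Fn1, Thbs1, Eln, Pcolce, Loxl1 and Fbln1 in treated against injured mice.

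**Figure D4:**
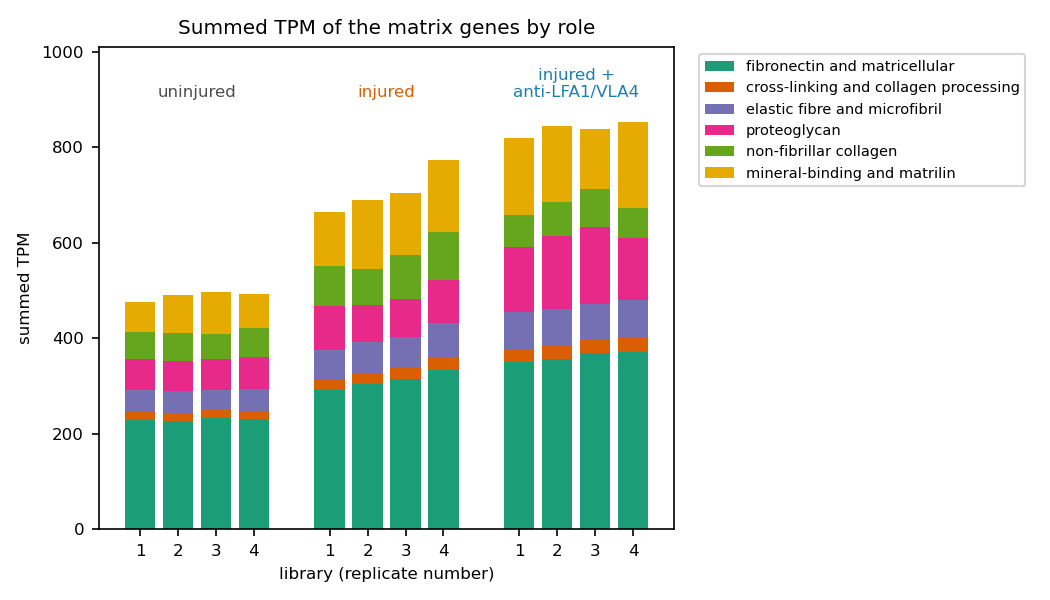
Stacked bars give the summed TPM of the matrix genes in each library, coloured by role. The bars reach 475 to 497 TPM in uninjured, 664 to 772 TPM in injured and 820.2 to 854 TPM in treated libraries; Sparc is most of the lowest block, and the proteoglycan block widens in treated libraries.

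The fibrillar collagens, the partners of most members, showed both courses in 1 list of 11 tested genes. With injury 8 rose and 0 fell, in treated against uninjured mice 5 rose, and in treated against injured mice 4 rose and 4 fell. Over all genes tested, 11.9% rose and 11% fell with injury, and 6.3% and 3.22% in treated against uninjured mice. In treated against injured mice these shares were 10.9% and 10.7%. The counts of this and the following lists are to be read against them. Col3a1, the main chain of type III collagen, averaged 6.51, 10.6 and 128 CPM in uninjured, injured and treated mice, and rose by 0.70 on the log2 scale with injury (edgeR adjusted p = 0.00145) and by 3.59 in treated against injured mice (adjusted p = 7.00e-11). Col1a1, type I collagen, rose by 1.09 and 1.91, Col1a2 by 0.79 and 1.71, and Col5a2 by 0.43 and 1.04 in the same comparisons. Col5a1, Col11a2, Col24a1 and Col27a1 were lower in treated than in injured mice, and 1 gene was once the GC and length trend was taken out.

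Among 23 enzymes and chaperones of collagen maturation 8 rose with injury, 5 were higher in treated than in uninjured mice, and in treated against injured mice 3 were higher and 1 lower. The last counts are close to or below the 10.9% and 10.7% of all genes that were higher and lower there. The 8 became 2 once the GC and length trend was taken out, and without treated library 3 the 5 became 8 and the 1 lower became 2. Serpinh1, the collagen chaperone of the endoplasmic reticulum, rose by 0.45 on the log2 scale with injury and by 0.42 in treated against injured mice (edgeR adjusted p = 0.00236 and 0.00145). Tgm2, a cross-linking transglutaminase, rose by 0.36 and 0.21. P4ha1, a collagen prolyl hydroxylase subunit, rose only in treated mice, by 0.49 against injured and 0.36 against uninjured mice. Bmp1, the procollagen protease that Pcolce enhances, rose by 0.38 with injury and was lower in treated than in injured mice by a log2 fold change of -0.42 (edgeR adjusted p = 6.32e-04).

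Of 22 tested matrix receptors 5 rose and 4 fell with injury, 6 were higher in treated than in uninjured mice, and in treated against injured mice 6 were higher and 2 lower. Over all genes 11.9% rose and 11% fell with injury, and 6.3% were higher in treated than in uninjured mice. The 2 lower receptors are no larger a share than the 10.7% of all genes lower in treated than in injured mice. Without injured library 4 only 3 rose with injury, and those that fell numbered 1 without uninjured library 1 and 2 without uninjured library 2 or 4 or injured library 2 or 4. In treated against injured mice 3 were higher without injured library 2 or 4 or treated library 2, and 4 were lower without injured library 2 or treated library 3 and 1 without injured library 4 or treated library 2. Without treated library 3, 2 were lower in treated than in uninjured mice. With the GC and length trend taken out 1 fell with injury, and 3 were higher and 1 lower in treated than in injured mice. Itgb5, an integrin subunit for vitronectin, rose by 0.56 on the log2 scale with injury, as did Mrc2, a receptor that takes up collagen (0.77) and Ddr1, a collagen-binding kinase (0.39). Ddr1 was lower in treated than in injured mice (-0.47), and Cd44, the hyaluronan receptor, was higher (0.79, edgeR adjusted p = 0.00397).

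Of 18 genes of TGF-beta activation and response 5 rose and 3 fell with injury, 4 were higher in treated than in uninjured mice, and in treated against injured mice 4 were higher and 3 lower. The 5 that rose were 3 without uninjured library 1 or injured library 4, and the 3 that fell were 0 without uninjured library 1 or 4 or injured library 3 or 4 and 1 without uninjured library 2 or injured library 2. Those higher in treated than in uninjured mice were 2 without uninjured library 1, 2 or 3, injured library 3 or treated library 1 or 2, and those higher in treated than in injured mice 7 without injured library 1. With the GC and length trend taken out 3 rose with injury and 1 was lower in treated than in injured mice. Ccn1, a matricellular early response gene, rose by 1.04 on the log2 scale with injury (edgeR adjusted p = 4.14e-05) and was at 0.02 in treated against uninjured mice. Tgfbi, a TGF-beta induced adhesion protein, rose by 0.41 with injury and by 0.41 in treated against injured mice. Ltbp3 and Ltbp4, which hold latent TGF-beta in the matrix, rose by 0.59 and 0.33 with injury and were lower in treated than in injured mice (-0.25 and -0.39). Of the further small leucine-rich proteoglycan genes 6 of 12 could be tested. Chadl was the 1 that passed, lower in treated than in injured mice by a log2 fold change of -0.47 (edgeR adjusted p = 0.0464). No gene of this list was lower there without any 1 library other than uninjured library 1 or treated library 4, or once the GC and length trend was taken out. Omd, which belongs to the gene group of Aspn and Ogn, averaged 1.15, 0.972 and 1.66 CPM (treated against injured 0.78, adjusted p = 0.0511). In that comparison 1 gene of the list was higher without injured library 1 or treated library 4, and with injury 1 was without treated library 4.

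Markers of some other cell types moved with the treated group. Counts in the marker lists are to be read against the shares of all genes tested. With injury 11.9% of all genes rose and 11% fell. In treated against uninjured mice these shares were 6.3% and 3.22%, and in treated against injured mice 10.9% and 10.7%. Among 11 skeletal muscle genes 0 changed with injury, and 11 were higher in treated than in either other group. Their summed level was 10.9 to 16.8 CPM in uninjured, 14.6 to 17.6 CPM in injured and 121 to 163 CPM in treated libraries. Acta1, skeletal muscle actin, held 7.26 to 10.3, 9.87 to 11.2 and 32.2 to 49.1 CPM, and Myh1, a fast muscle myosin, 0.872 to 1.01, 0.446 to 1.07 and 24.8 to 28.3 CPM. Ckm, muscle creatine kinase, was at 0 in 2 uninjured and 3 injured libraries and at 11.2 to 15.5 CPM in treated ones. Muscle and its sheaths also hold interstitial matrix, and the part of this RNA in the higher matrix levels of treated mice was not tested.

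Fibroblast markers gave 1 of 9 tested genes higher with injury, 3 higher in treated than in uninjured and 4 in treated than in injured mice, with summed levels of 101 to 116, 97.3 to 110.04 and 112 to 122 CPM. Most of each sum came from Pdgfra (means of 53.5, 41.8 and 42.25 CPM) and Pdgfrb (28.3, 31.8 and 29.0 CPM), which passed no test. The sum thus hardly shows the scarcer markers. Which cells the Pdgfra and Pdgfrb RNA came from was not tested. The 4 higher in treated than in injured mice were Dpt, Pi16, Prrx1 (log2 fold change 0.82) and Fap (0.64). Dpt, dermatopontin of connective tissue fibroblasts, was at 0.0652 to 0.134 CPM in uninjured, 0 to 0.191 CPM in injured and 6.56 to 7.76 CPM in treated libraries. Pi16, a marker of adventitial fibroblasts, held 0.336 to 0.872, 0.747 to 1.01 and 2.85 to 3.84 CPM. Dpt, Pi16, Prrx1, Fap and Ckm were singled out after their values were seen.

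Meningeal markers moved already with injury, with 6 of 10 higher, 7 higher in treated than in uninjured mice and 1 in treated than in injured mice. Their summed level was 634 to 830 CPM in uninjured, 924 to 1101 CPM in injured and 883 to 1419 CPM in treated libraries. Most of it came from Ptgds, prostaglandin D synthase (497 to 686, 763 to 948 and 687 to 1237 CPM) and Igf2 (93.5 to 96.6, 95.9 to 108 and 127 to 135 CPM). Igf2 did not pass with injury (0.11, edgeR adjusted p = 0.174). The sum ranked the uninjured and the treated libraries as the choroid plexus sum did, but not the injured ones. Whether the Ptgds RNA came from meningeal cells was not tested. Macrophage and microglia markers summed to 230.5 to 251 CPM in uninjured, 287 to 312 CPM in injured and 388 to 477 CPM in treated libraries, with 4 of 9 higher and 1 lower with injury and 5 higher in treated than in injured mice. Most of the rise in this sum came from Lyz2, the lysozyme of myeloid cells, which held 38.99 to 46.6, 79.5 to 100.02 and 163 to 241 CPM. Csf1r did not rise in such steps, with 104 to 113, 119 to 127 and 116 to 123 CPM. Among bone and cartilage markers 3 of 8 tested were higher with injury and 2 in treated than in injured mice, with summed levels of 30.1 to 33.4, 32.4 to 35.98 and 36.02 to 39.9 CPM. Pericyte and smooth muscle markers were not higher with injury: 0 of 8 rose and 2 fell, and 1 was higher and 1 lower in treated than in injured mice. Endothelial markers gave 1 higher and 2 lower of 8 with injury, and 0 of 8 in treated against injured mice.

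Markers of brain regions and choroid plexus differed too. Thalamic genes summed to 130.0 to 141 CPM in uninjured, 202 to 214 CPM in injured and 197 to 211 CPM in treated libraries, with 6 of 8 higher with injury. Striatal genes summed to 1431 to 1510 CPM, 1170 to 1196 CPM and 1246 to 1343 CPM, with 3 of 8 lower with injury. The 6 choroid plexus genes summed to 961 to 1283 CPM, 782 to 1080 CPM and 1116 to 1869 CPM; 4 were lower with injury and 6 higher in treated than in injured mice. The part of these cell types and regions in the matrix results was not tested.

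**Figure D5:**
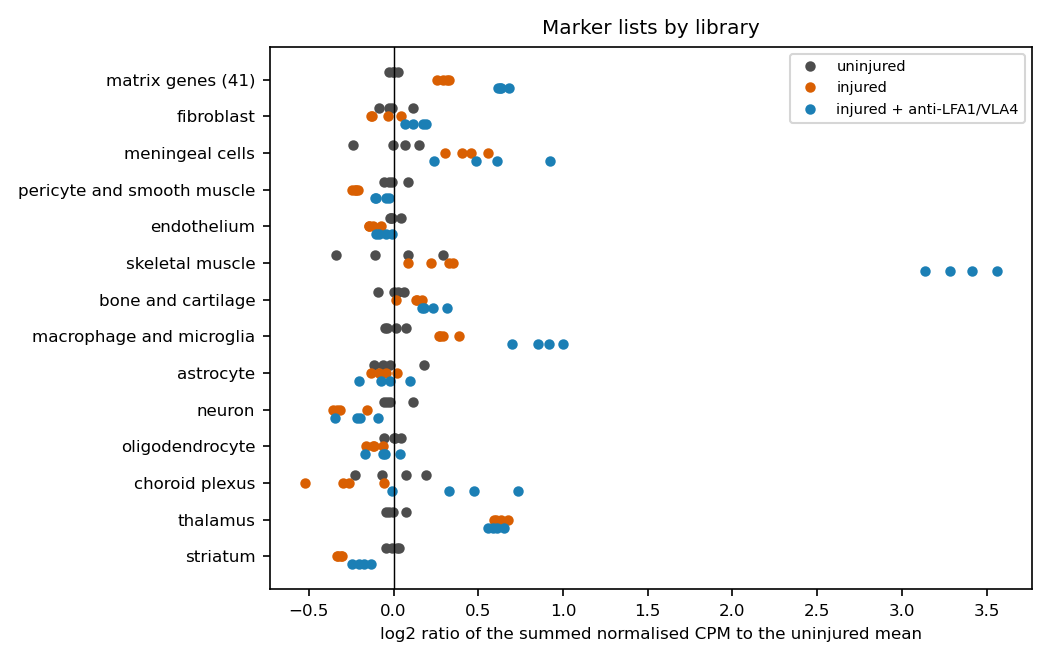
Each point is a library's log2 ratio of the summed normalised CPM of a list to the uninjured mean, for the 41 matrix genes and 13 lists of cell type and region markers. The skeletal muscle list lies above 3 in the treated libraries and near 0 in the others, meningeal and thalamic markers are raised in both injured groups, and macrophage and microglia markers rise in steps. Ptgds makes up most of the meningeal sum, and Lyz2 most of the rise in the macrophage and microglia sum.

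Some members share sequence with another annotated gene. The exons of 14 members overlap another gene in GENCODE M21, among them Fn1, Thbs1, Lox, Eln, Pcolce, Mfap4, Aspn and Efemp2, and whether the counting used the strand is not given, so some of their reads may belong to the other gene.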

How the data were processed

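Total RNA of 12 libraries was sequenced after a stranded total RNA kit fed with 500 ng, per the labels' protocols. Reads were handled with Trimmomatic 0.39, FastQC 0.11.8 and CASAVA 1.8.2 on build GRCm38, per the submitters' processing notes. No source used here gives the aligner or the counting program. The authors deposited, per the file headers, total and unique read counts over exons and introns of 25749 genes, all with the coordinates of GENCODE M21. They also deposited TPM, per the file headers, which total exon counts and exon lengths gave back in every library. The RPKM and junction columns were not used.

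Total exon counts entered 1 quasi-likelihood model of edgeR 4.0.16 (R 4.3.3) with group as the only term, filterByExpr, TMM factors and 9 residual degrees of freedom. The 14771 genes left were tested two-sided between each pair of groups, with Benjamini-Hochberg adjustment over all of them at 0.05. Fold changes carry their SE, and levels are CPM or TPM as mean ± SD over 4 libraries or the value of each library. Total counts include reads that match more than 1 place; unique reads made up 95.6% to 96.7%. The model was also run on counts simulated from the mean levels of these libraries and its own fitted spread. Such counts cannot show how well it is calibrated on the real ones. The labels call each sample a biological replicate.

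The 41 genes, the role groups, the pathway and marker lists and the tests were chosen with earlier results of these data known, the thalamic and striatal lists in particular. In each role group the 3 genes of smallest p (both, in the pair) were given in every library, a gene called against most of its group was named with its fold and p, and from each pathway list the 2 to 4 genes of smallest p were named. Marker genes were named by the highest level. Fmod, Aspn, Ogn and Col6a1 were given more fully, and Omd and the fibrillar collagens that fell were named, after their values were seen.

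Alternatives were DESeq2 1.42.0 size factors and its Wald test, library size alone, other filters on low counts, unique reads, intron reads, limma 3.58.1 with voom, limma on log2(TPM + 1) or log2(TPM + 0.1), a robust spread, a test against a fold of 1.2, the compared groups alone, a replicate block, a trend over GC content and length fitted with mgcv 1.9.3, and each library left out. Uninjured library 1 and treated library 4, the ends of the leading principal component, were also left out together. Replicate numbers showed no clear pairing: 2 of 12 same-numbered pairs had deviations correlated over 0.1 (range -0.532 to 0.434). With 4 libraries a group this cannot exclude a pairing.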

Additional observations from a re-analysis of the deposited data

Results flagged for a closer look

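Of the 120 sets of 4 libraries looked at, 40 genes in each of 3 groups, 6 held a library that stood apart from the other 3 of its group. Chance alone marks about 1 in 20 such sets. Tnc was at 4.61 CPM in 1 injured library and at 5.48 to 5.50 CPM in the others. Efemp2 reached 16.2 CPM in 1 treated library against 12.2 to 12.7 CPM, Emilin2 6.05 CPM against 5.18 to 5.28 CPM, and Col6a2 28.2 CPM against 24.9 to 25.1 CPM. Col12a1 was at 15.5 CPM in 1 uninjured library against 9.93 to 10.8 CPM, and Col16a1 at 17.7 CPM against 21.5 to 22.1 CPM. Of the calls of these 6 genes, that of Col16a1 in treated against uninjured mice was lost without this uninjured library (log2 fold change 0.22, adjusted p = 0.125), as without any other library; the other calls did not turn on the library that stood apart.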

How the results depend on the processing

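Counts of members held within 1.5 times the reported ones under most alternatives, with these exceptions. In injured against uninjured mice higher members fell from 15 to 5 in the test against a fold of 1.2 and to 0 in intron reads, and ranged from 10 to 16 with 1 library left out. Lower members there numbered 0 in the fold test, in intron reads and on log2(TPM + 1) without a filter, and 1 to 3 with 1 library left out (1 without uninjured library 1 or 4 or injured library 2 or 4). In treated against uninjured mice the 30 higher members were 0 in intron reads, and lower members ranged from 0 to 1 with 1 library left out (Vcan passed without treated library 3). In treated against injured mice the 22 higher members were 12 in the fold test, 1 in intron reads and 14 on log2(TPM + 0.1) and on log2(TPM + 1) without a filter, and the 2 lower ones were 0 in the fold test, in intron reads, and after the GC and length trend was removed, with or without the replicate block. Intron reads allowed fewer genes to be tested, 17 members of 11279 genes, and turned the direction of 7 called log2 fold changes: Fn1 -0.0138, Fbn1 -0.01205, Fbln2 -0.1582 and Fbln1 -0.1191 in treated against uninjured mice, and Fbln2 -0.2959, Sparc -0.1013 and Fbln1 -0.3629 in treated against injured mice. The cause of these changes was not tested. With the replicate block, whose numbers showed no clear pairing of the mice, members higher and lower were 13 and 3, 30 and 0, and 20 and 2 in the 3 comparisons. The share of all genes called was 23.0%, 9.53% and 21.6% and ranged over 9.32% to 31.0%, 5.73% to 26.7% and 12.7% to 24.3% with 1 library left out. In the 3 comparisons 2 of 18, 18 of 30 and 12 of 24 calls were kept in every alternative run for them; each of these genes had 29, since none could be tested in intron reads. Depth left Loxl4 untested, and Mfap5, Ltbp2 and Lox rest on 17 to 160 reads a group.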
